A study of Mus musculus with 13 samples.

Results

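The sequences described here were all reads of 29 to 32 nt that began with U, written T in the deposited sequence lists, the size and first base of piRNAs bound by MIWI. They were chosen by length and first base alone, with no use of abundance, and are called members. The 13 libraries held 2899890 distinct members among 18788483 distinct sequences. Between 8749 and 1152496 of them were seen in a sample. The mice were C57BL6/J males, and the libraries came from their germ cells at postnatal 3-4 wks, sorted by FACS after Hoechst-33342 staining, with no further treatment named in the labels. One set of single libraries held spermatogonia (SG, n = 1), leptotene/zygotene spermatocytes (LZ, n = 2), pachytene/diplotene spermatocytes (PD, n = 1) and round spermatids (RS, n = 1), all read in 50-bp runs. A second set held spermatogonia (SG_T, n = 2) and leptotene/zygotene spermatocytes (LZ_T, n = 2), each read once in a 50-bp run and once in a 100-bp run whose counts were summed. The labels give no genotype. The header cells of all 8 summary tables of the SG_T and LZ_T libraries carry a Pld6 knockout tag and those of the other 5 carry none, so that genotype, library set and run could not be told apart in any comparison between the sets. Total reads were 12541019 to 29956080 in the single-library samples and 1810805 to 10764026 in the SG_T and LZ_T samples, and the list of SG sequences ended in 1 line with no count. The labels call the replicates of LZ, SG_T and LZ_T biological without naming animals, so p-values measure the spread between these samples.

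PIWI proteins are the Argonaute proteins of the germ line, and the small RNAs they carry guide them to complementary RNA. In mouse testis MILI binds the shorter piRNAs and is present from early germ cells on, whereas MIWI appears at the pachytene stage, binds longer piRNAs and is loaded mostly from long intergenic noncoding precursors. The 5′ end of such piRNAs is usually U, and PLD6 (MitoPLD), a protein of the mitochondrial outer membrane, is known for its role in making these ends. Reads of the same size and first base can also be fragments of tRNAs, snoRNAs, snRNAs or rRNAs, so membership by size and base alone does not show that a read was bound by a PIWI protein.

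The members with the highest RPM (read count scaled in the usual way to all reads of the sequence list) differed between PD and RS on one side and SG_T and LZ_T on the other. They are printed 5′ to 3′ because most results below turn on them. Capitals mark the first base and, where there is one, an A at position 10. The first set was the most read in PD and RS. M10 matched annotated snRNA genes of the U2 type exactly, from position 17 of the transcript on, and the others had no exact match in the GENCODE transcripts.
M10: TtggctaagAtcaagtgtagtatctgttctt
M8: TttgaaatcAggactgttctggaaattcc
M11: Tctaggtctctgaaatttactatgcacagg
M9: TcattttacAaatgaggaactaggctcagg
M12: Tttctacaaggtatgattttgagctcatgt

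M14 and M15 were among the members read most in SG_T and LZ_T, and M2 among those of SG, and other leading members of these groups are not shown. M14 is the start of the snoRNA genes Snord14c and Snord14d in the Hspa8 locus (GRCm38 chr9:40803583-40803668 and chr9:40803995-40804080, plus strand). M15 also matched U2-type snRNA genes, from position 9 on. M2 differed by T1G, counted from its 5′ end, from the first bases of the Y RNA gene Rny1 (GRCm38 chr6:47788069-47788180, minus strand).
M14: Tcgctgtgatgatggattccaaaaccattc
M15: Tcggccttttggctaagatcaagtgtagta
M2: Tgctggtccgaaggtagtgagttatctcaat

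Members took a larger share of reads at each later single-library stage and a small one in SG_T and LZ_T. Of all SG reads 4.13% were members (Wilson 95% interval, 4.11 to 4.14%). In the 2 LZ samples they made up 9.71% and 7.15%. In PD they reached 45.0% (44.9 to 45.0%) and in RS 57.6% (57.6 to 57.6%), so that MIWI-sized U reads were the largest part of the spermatid library. These intervals cover counting error only. As ratios of group means, LZ was 2.04 times SG, PD 5.33 times LZ and RS 1.28 times PD, none of which could be tested because at least 1 group of each pair had 1 sample. Fewer cells of a type and less RNA per cell cannot be told apart in such values.

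In the technical-replicate libraries members were 1.54% and 1.03% of reads in SG_T and 1.85% and 1.33% in LZ_T. The mean was 15890 ± 3672 RPM in LZ_T against 84311 ± 18152 RPM in LZ (SD, n = 2 each), a ratio of 0.188, and the groups did not overlap. The two-sided exact permutation test gave p = 0.33, the smallest value that 2 against 2 samples allow (adjusted p = 0.556 over the 10 such tests made). LZ_T and SG_T overlapped, with 12847 ± 3618 RPM in SG_T (SD, n = 2; exact permutation p = 0.667, adjusted p = 0.667). The share of U among all 29-32 nt reads was likewise low in the second set. It was 53.3% in SG, 72.5% and 65.7% in the LZ samples, 87.3% in PD and 87.6% in RS, but 19.1% and 20.8% in SG_T and 24.3% and 27.1% in LZ_T.

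The most read lengths also differed. Among U reads from 25 to 33 nt the modal length of SG was 27 nt, that of each LZ sample 26 nt and that of PD and RS 30 nt, while it was 25 nt in SG_T and 27 nt in LZ_T. Within the member window 29 nt was the most read length in SG, LZ, SG_T and LZ_T and 30 nt in PD and RS. Reads of 32 nt made up 6.86% of the members in RS, 8.35% in PD and 8.37 to 9.47% in SG and LZ, but 19.4 to 24.1% in the SG_T and LZ_T samples. Set against U reads of 25-28 nt, the MILI size, members were 0.340 times as many in SG, 0.475 and 0.402 times in LZ, 1.80 times in PD and 4.52 times in RS. The ratio was 0.554 and 0.600 in SG_T and 0.500 and 0.468 in LZ_T. It was lower in both LZ_T samples than in both SG_T samples (exact permutation p = 0.33, adjusted p = 0.556) and overlapped between LZ_T and LZ (exact permutation p = 0.667, adjusted p = 0.667).

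Many members shared their 5′ end with the shorter class. In PD, 88.1% of member reads had the same first 25 bases as a U read of 25-28 nt in the same sample, and 87.9% of those shorter reads had the first 25 bases of a member. In SG the shares were 62.3% and 43.5%, for one LZ sample 84.5% and 71.2%, and for the other 76.4% and 59.1%, in the same order. These shares grow with depth and were not compared between the sets.

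Member populations of the first set were diverse and those of the second set were concentrated in few sequences. With every sample reduced in expectation to 18631 member reads, the number in the smallest sample, SG held 14715 distinct members, LZ 14663 and 15616, PD 13711 and RS 13039. SG_T held 8827 and 8749, and LZ_T 9616 and 9253. LZ_T stayed below LZ in all 4 sample pairs (9435 ± 256.4 against 15140 ± 674, SD, n = 2 each; exact permutation p = 0.33, adjusted p = 0.556). It stayed above SG_T in all 4 pairs (8788 ± 55.1, SD, n = 2; exact permutation p = 0.33, adjusted p = 0.556).

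The 100 most read members took 13.4% of member reads in SG, 8.76% and 6.81% in the LZ samples, 10.1% in PD and 12.6% in RS. They took 31% and 35.1% in SG_T and 26.7% and 31.9% in LZ_T, above every library of the first set. The difference between LZ_T and LZ was 21.5 percentage points, with p = 0.33 by the exact permutation test (adjusted p = 0.556), and LZ_T and SG_T overlapped (exact permutation p = 0.667, adjusted p = 0.667). The 10 most read members took 2.05 to 6.05% in the first set and 10.3 to 16.9% in the second, and the top 1000 took 16.2 to 27.1% and 48.0 to 56.0%. The number of sequences that together held 50% of member reads was 35202 in SG, 21193 and 38768 in the LZ samples, 11499 in PD and 8351 in RS. It was 740 and 553 in SG_T and 1216 and 903 in LZ_T. The top shares and this number were taken without reduction to equal reads. Such a number grows with depth and cannot exceed the distinct members of a sample, 8749 in SG_T replicate 2. It was therefore not compared between the sets.

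Exact sequences were widely shared between the later stages of the first set. With the second library thinned in expectation to 1810805 reads, 76.9% of RS member reads had a sequence that was also in PD, and 75.2% of PD member reads had one that was in RS. Of LZ member reads, 62.6% and 49.1% were found in PD, and of SG member reads 23.4%. By distinct sequence the shares were smaller, with 13.8% of distinct RS members in PD and 15.7% of distinct PD members in RS. Most members were read once (68.9 to 83.3% of distinct members in each sample).

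At an equal number of total reads the second set shared reads with itself more than with LZ, by little in some pairs. Of LZ_T member reads, 56.6% and 61.8% were in the other LZ_T sample and, for LZ_T replicate 1, 55.2% and 50.2% in the SG_T samples. In the opposite direction, 8.06 to 9.89% of LZ member reads and 3.16 to 3.76% of PD member reads had their sequence in an LZ_T library. Depth was set by all reads of the list and not by member reads. These shares therefore also follow the member level of the library searched, which was low in LZ_T. Between 43.4 and 49.5% of LZ_T member reads were in an LZ library, and 28.7% and 32.9% in PD. Of all distinct members 77.1% were in 1 sample only, and 582 were in all 9 samples. Those 582 took 33.1 to 41.7% of member reads in the SG_T and LZ_T samples, 13.6% in SG, 6.21% and 6.23% in the LZ samples, 3.02% in PD and 4.13% in RS.

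An A at position 10, the base that a partner piRNA leaves in a ping-pong pair, was present in 30.6% of member reads in SG, 30.3% and 32.8% in the LZ samples, 30.5% in PD and 31.6% in RS. It was present in 24.1% and 19.3% in SG_T and in 30.8% and 29.9% in LZ_T. In reads of the same length that began with another base the shares were 24.7% in SG, 32% and 33.6% in the LZ samples, 41.3% in PD and 41.7% in RS, and 31.9% and 25.5% in SG_T and 27.5% and 21.2% in LZ_T. Members thus lay above the other reads in SG and in LZ_T and below them in LZ, PD, RS and SG_T. LZ_T and LZ overlapped (exact permutation p = 0.667, adjusted p = 0.667). LZ_T was higher than SG_T in all 4 sample pairs by 8.69 percentage points (exact permutation p = 0.33, adjusted p = 0.556).

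Most members matched no annotated transcript, and of the reads that did match, mRNAs took most in SG and long noncoding RNAs most in PD. No exact match to a GENCODE transcript (M21, GRCm38) was found for 86.5% of distinct members. Nuclear tRNAs and the 45S rRNA precursor were not among the transcripts searched, so fragments of them count as unmatched. Members matching mRNAs took 25.4% of member reads in SG, 6.38% and 10.3% in the LZ samples, 2.43% in PD and 2.55% in RS. Those matching long noncoding RNAs took 2.63% in SG, 4.91% and 4.69% in the LZ samples, 5.63% in PD and 5.46% in RS. In RPM the mRNA members were at 10486 RPM in SG and 10930 RPM in PD, while the long noncoding members went from 1087 to 25314 RPM.

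Members matching the small structural RNAs that were searched (snoRNA, snRNA, rRNA and the like) took 22.2% and 15.3% of member reads in SG_T and 16.9% and 12.3% in LZ_T, against 3.83% in SG, 1.92% and 2.61% in the LZ samples, 1.55% in PD and 2.22% in RS. As levels they were at 3126 and 1640 RPM in LZ_T and 1862 and 1867 RPM in LZ, so that their level overlapped between these groups while their share of members did not. snoRNA fragments were the largest group, at 8.67 to 10.7% of member reads in SG_T and LZ_T against 0.017% in PD and 0.015% in RS. In PD and RS the share was mostly snRNA (1.47% and 2.14%), and M10 was the most read of these.

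Among mRNA members with a single gene, 74.5% of reads in SG, 70.2% and 74.1% in the LZ samples, 72.1% in PD and 75.7% in RS began in the 3′ UTR. The share was 58.2% and 51.8% in SG_T and 70.0% and 77.2% in LZ_T, so the 2 SG_T samples lay below all others. Coding sequence took most of the rest, with 19.9 to 27.1% outside SG_T and 37.4% and 43.9% in SG_T.

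Genes that gave many members differed by kind in how their level in PD and in SG compared with LZ. Of the 126 genes whose member reads averaged 5 RPM or more across LZ and LZ_T, 81 were coding. The other 45, pseudogenes among them, are called noncoding here. PD was above both LZ samples for 36 of the noncoding and 29 of the coding genes, and SG was above both LZ samples for 3 and 52. A gene could be in both counts. The genes named here were chosen after their values were seen. For the first group one member of each gene is printed, the most read in PD, with its place on GRCm38. Gm21269 and Gm10619 are lincRNA genes that lie head to head on chromosome 7, 42 bases apart. Gm49794 and Gm5878 are lincRNA genes on chromosomes 17 and 6. Cbl encodes a ubiquitin ligase and Ago2 a small-RNA-guided endonuclease, and both members lie in the 3′ UTR.
Gm21269 (chr7:73819463-73819493, plus): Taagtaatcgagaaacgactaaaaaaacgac
Gm10619 (chr7:73809189-73809219, minus): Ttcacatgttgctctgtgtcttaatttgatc
Gm49794 (chr17:27357417-27357446, plus): Tatgagctctatcgggtttctgaaccctgg
Gm5878 (chr6:85112878-85112907, minus): TagaagacgAgtttggactgagcgaaattc
Cbl (chr9:44148081-44148110, minus): Taaaaacttgtgggttctgaaatatacctc
Ago2 (chr15:73104273-73104302, minus): TtattattaAgattagtttcgagacagtgt

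Member reads of Gm21269 were 37.0 RPM in SG, 645 and 363 RPM in the LZ samples, 4042 RPM in PD and 5377 RPM in RS. In the second set they were 1.21 and 2.21 RPM in SG_T and 1.29 and 0.836 RPM in LZ_T. The gene gave 2689 distinct members in PD, 10.1% of its reads being the printed one, and 8 and 9 in the LZ_T samples. Gm49794 went from 47.5 RPM in SG over 905 and 489 RPM in LZ to 3705 RPM in PD and 3288 RPM in RS, with 0.964 and 0.650 RPM in LZ_T. Gm5878 reached 2075 RPM in PD and 3267 RPM in RS from 12.5 RPM in SG, and the printed member alone took 38.8% of its PD reads. Every one of these genes was lower in both SG_T and both LZ_T samples than in SG.

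Coding genes could follow the same course. Cbl had 42.2 RPM in SG, 92.9 and 75.6 RPM in the LZ samples, 690 RPM in PD and 1057 RPM in RS, and 0.321 and 0.093 RPM in LZ_T. Of its member reads 99.9% fell in the 3′ UTR. Ago2 had 8.66 RPM in SG, 53.6 and 36.1 RPM in the LZ samples, 489 RPM in PD and 778 RPM in RS, with 99.6% in the 3′ UTR. Nemp1, which encodes a protein of the inner nuclear membrane, reached 734 RPM in PD and 1010 RPM in RS.

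Other coding genes gave more member reads in SG than in PD. For 2 of them the most read member in SG is shown, both from the 3′ UTR.
Tmem245 (chr4:56873857-56873885, minus): TctcatggtActggcatctgcaaacactg
Bend4 (chr5:67394530-67394558, minus): Tgcaactgagaaagtggacaaaactcctg

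Tmem245 gave 99.7 RPM of member reads in SG, 49.5 and 69.5 RPM in the LZ samples, 1.13 RPM in PD and 0.718 RPM in RS. Bend4 gave 58.7 RPM in SG and 23.0 and 23.2 RPM in LZ, and no member read in PD, RS or either LZ_T sample. Fth1, which encodes the ferritin heavy chain, had 98.9 RPM in SG and 1.81 RPM in PD, and only 2.18% of its member reads were in the 3′ UTR. D10Wsu102e was at 244 RPM in SG, 132 and 311 RPM in the LZ samples, 80.2 RPM in PD and 40.7 RPM in RS, and kept 19.6 and 15.5 RPM in LZ_T.

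Summed per gene, member reads of LZ_T and LZ were compared for the 126 genes (edgeR quasi-likelihood test, library size the whole sequence list, Benjamini-Hochberg over the genes). In LZ_T 110 genes were lower (87.3% of those tested) and 9 were higher (7.14%), and the groups did not overlap for 122 (96.8%). A gene that passed the filter through one group alone had to differ, so these counts describe only the genes that passed. Of the 45 noncoding genes 41 were lower and 1 was higher, and of the 81 coding genes 69 were lower and 8 were higher. The log2 difference was -8.92 ± 1.12 for Gm21269 and -7.59 ± 0.84 for Tmem245 (SE; edgeR adjusted p = 1.02e-13 and 2.23e-16). Both fitted values rest on counts near 0 in LZ_T and depend on the prior count. With TMM factors in place of the library size, 79 genes were lower and 26 were higher. The genes that were higher included Lars2 (92.2 and 35.7 RPM in LZ_T against 14.4 and 12.3 RPM in LZ) and Gm26917 (30.9 and 11.1 RPM against 6.48 and 6.01 RPM), whose annotated transcripts are known to hold rRNA-like stretches.

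Sequence by sequence, most members abundant enough to be tested were lower in LZ_T than in LZ. The test covered 12044 sequences of any length and first base that averaged 5 RPM or more across these 4 samples, of which 541 were members, so that the great majority of members was too rare to be tested. Of the 541 members 343 were lower in LZ_T and 80 were higher (edgeR quasi-likelihood test, adjusted p under 0.05). Among all sequences tested, 20.7% were lower and 32.1% were higher. The groups did not overlap for 485 members, against 77.5% of all sequences tested. A member that passed the filter through its level in one group alone had to differ, so these counts describe the abundant members and no others.

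The median log2 difference was -7.76 over the 541 members and 0.44 over all sequences tested. 220 of the members called lower had no read in either LZ_T sample, and from counts pooled over each group, with at least 3 counts set for each, the median was -6.04. With TMM factors the median of all sequences moved to -0.22, and the calls over all sequences went from 2494 lower and 3861 higher to 3274 and 2944. All 343 members were again lower among the 362 so called with TMM factors, and 59 of the 80 higher ones remained.

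Of the 343 members called lower, 320 were read at least 10 times in PD, as were 15 of the 80 called higher and 405 of all 541 tested. Of the 343, 284 had no transcript match, 21 matched a long noncoding RNA and 11 an mRNA. The members with the largest fitted fall whose groups also did not overlap are shown next. They had no read in LZ_T, so their fitted values and their rank depend on the prior count.
M21: TcaataaatAtttgtagaatgcatgaatga
M22: Tgaaatggagcacagaaccacatggaaac
M23: Tatgagctctatcgggtttctgaaccctgt

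M21 was read at 189 and 85.0 RPM in the LZ samples, 803 RPM in PD and 1086 RPM in RS and had no read in SG_T or LZ_T, which makes its mean at least 775-fold lower in LZ_T (LZ mean over 3 counts in the whole LZ_T group), or at least 481-fold without LZ replicate 1. M22 was at 99 and 62.8 RPM in the LZ samples, 66.6 RPM in PD and 21.7 RPM in RS, at least 458-fold lower in LZ_T on the same floor. M23 was at 87.1 and 39.0 RPM in LZ, at least 357-fold lower in LZ_T or 221-fold without LZ replicate 1, and differed by G30T from the most read Gm49794 member printed above.

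The leading members of PD and RS were already present in LZ and nearly gone from LZ_T. M10 was read at 229 and 113 RPM in the LZ samples, 5858 RPM in PD and 11205 RPM in RS, and at 1.29 and 0.465 RPM in LZ_T (log2 difference from LZ -7.67 ± 0.92, SE; edgeR adjusted p = 4.21e-15). M8 was at 282 and 132 RPM in the LZ samples, 2871 RPM in PD and 5712 RPM in RS, and at 0.321 and 0.372 RPM in LZ_T (-9.17 ± 0.98, SE; edgeR adjusted p = 3.00e-18). In SG both were rare, with 19.6 RPM for M10 and 13.8 RPM for M8. M9, M11 and M12 had 69.0 to 280 RPM in LZ, 1138 to 2612 RPM in PD and at most 0.321 RPM in LZ_T. Each was called lower in the same test. All of these members passed the filter through LZ alone, so they had to differ. Their fitted values rest on counts near 0 in LZ_T and depend on the prior count.

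M14, the snoRNA fragment, was higher in LZ_T (264 and 191 RPM) than in LZ (60.02 and 89.7 RPM; edgeR adjusted p = 0.0286). The call did not hold with TMM factors (edgeR adjusted p = 0.201) or in the 50-bp runs alone. It was also lost without LZ replicate 1, LZ_T replicate 1 or LZ_T replicate 2 (edgeR adjusted p = 0.151, 0.184 and 0.0566). M15 was at 41.5 RPM in SG, 30.8 and 47.1 RPM in the LZ samples, 9.56 RPM in PD and 26.7 RPM in RS. It was at 136 and 62.0 RPM in LZ_T and 273 and 19.3 RPM in SG_T. The difference between LZ_T and LZ was not called (edgeR adjusted p = 0.0871). M2 was read at 255.7 RPM in SG and at 0.159 to 5.16 RPM in the other 8 samples.

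The members called higher in LZ_T included substitution variants of other members. Of the 80 members called higher, 6 were a G-to-T variant of a member read at least 10 times as often in LZ_T. The share of such variants among all members tested was not counted. At some positions G-to-T variants were more frequent in the 100-bp runs, as given below, so calls of such variants can depend on the run. With the 50-bp runs alone 43 members were higher and 351 lower, of which 41 and 341 were among those called with both runs.

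Marker miRNAs of other testis cells and of early germ cells were higher in LZ_T than in LZ. Of the 13 listed marker miRNAs that the reference held, 11 were higher in both LZ_T than in both LZ samples. They include both arms of miR-202 and of miR-142a, so the 11 are not independent. Mature miRNAs as a whole took 6.31% and 8.03% of reads in LZ_T and 4.04% and 5.81% in LZ. How many of all miRNAs were higher in this way was not counted. All 8 listed miRNAs of Sertoli cells, endothelium, erythroid cells and leukocytes and the 3 of early germ cells were those, and the 2 of meiotic and later germ cells were not. The summed Sertoli pair (miR-202-5p and miR-202-3p) was 4354 and 2034 RPM in LZ_T, 10.2 and 22.5 RPM in LZ, 129 RPM in SG and 302 and 237 RPM in SG_T. The endothelial miR-126a-3p was 548 and 767 RPM in LZ_T, 31.5 and 73.1 RPM in LZ and 435 and 498 RPM in SG_T. The erythroid sum was 2.73 and 2.88 RPM in LZ_T and 0.134 and 0.115 RPM in LZ, and the leukocyte sum 8.36 and 8.27 RPM against 1.1 and 3.38 RPM. In SG_T the erythroid sum was 7.01 and 3.31 RPM and the leukocyte sum 9.85 and 5.52 RPM. The early germ cell sum was 53.7 and 31.2 RPM in LZ_T and 1.1 and 5.1 RPM in LZ. The summed meiotic and later germ cell markers were 9.0 and 8.64 RPM in LZ_T, 20.8 and 29.9 RPM in the LZ samples, 82.1 RPM in PD and 117 RPM in RS. Their part in the member differences was not tested.

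Within the second set, the members that rose from SG_T to LZ_T were repeats inside many transcripts. The test covered 13254 sequences, 250 of them members. Of these, 22 were higher in LZ_T and none was lower by edgeR at an adjusted p under 0.05, while among all sequences tested 1.3% were higher and 0.0377% were lower. Among the members 34 were higher and 0 lower with DESeq2, which gave no adjusted p for 8. At an unadjusted p under 0.05, 3 were lower by edgeR and 4 by DESeq2. A member that passed the filter through LZ_T alone had to differ, as above. The groups did not overlap for 86 members, against 40.5% of all sequences tested. The 22 rose by 3.74 to 9.18 on the log2 scale and each matched between 8 and 405 genes. Of these, 18 were also higher in LZ_T than in LZ. The rule for named sequences left M24 and M25, which carry letters of the B1 SINE, a short interspersed repeat found in many transcripts.
M24: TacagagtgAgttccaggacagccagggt
M25: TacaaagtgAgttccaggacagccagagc

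M24 was read at 22.8 and 14.8 RPM in LZ_T, at 0.405 RPM and with no read in the SG_T samples, and at 1.2 and 3.26 RPM in LZ (log2 difference from SG_T 5.89 ± 1.08, SE; edgeR adjusted p = 0.0255). M25 was at 13.0 and 16.6 RPM in LZ_T and 0.944 and 0.552 RPM in SG_T, and at 6.11 and 13.1 RPM in LZ (4.15 ± 0.92, SE; edgeR adjusted p = 0.0396). The 624 members with the first 20 bases of M24 summed to 261 and 258 RPM in LZ_T, 17.3 and 9.94 RPM in SG_T, 36.3 and 76.8 RPM in LZ and 119 RPM in SG. All members in at least 5 genes that were mostly not noncoding RNA genes took 7.96% and 9.76% of member reads in LZ_T, against 1.11% and 0.918% in SG_T and 1.44% and 3.43% in LZ. In the authors' tables, B1 reads of 28-33 nt with any first base were 8824 and 9361 RPM in LZ_T, 799 and 695 RPM in SG_T and 738 and 1138 RPM in LZ. For LZ_T and SG_T these are unweighted means of the 50-bp and 100-bp runs. No member passed this test when the 100-bp runs were used alone, and 18 were higher with the 50-bp runs alone. Without SG_T replicate 2, the shallowest sample, 6 were higher, and with the replicate number as a block 35 were. M25 lost its call without either SG_T replicate (edgeR adjusted p = 0.0631 and 0.0985), and M24 in the 100-bp runs alone (edgeR adjusted p = 0.0514).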

How the data were processed

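The authors sequenced small RNA (TruSeq Small RNA kit) of sorted germ cells, trimmed adapters with cutadapt and deposited for each library the raw count of every distinct sequence. Nothing was aligned in these lists, and noncoding RNAs had not been removed. The authors also deposited tables of retrotransposon reads as RPM, made after removal of noncoding RNAs and miRNAs, which were used for 4 repeat families. For these tables they used SeqMap with up to 2 mismatches against consensus sequences and split a read with several best matches evenly. For SG_T and LZ_T the RPM of the 50-bp and 100-bp runs in these tables was averaged without weights.

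Counts of the 50-bp and 100-bp run of a sample were summed, giving 9 samples from 13 libraries. RPM was scaled to all reads of the whole list. Distinct members were compared at 18631 member reads and sharing at 1810805 reads, both in expectation. Group values were compared by two-sided exact permutation tests. Single sequences of at least 15 nt with a mean of at least 5 RPM, and genes, were tested with edgeR 4.0.16 (quasi-likelihood, library size the whole list, Benjamini-Hochberg, adjusted p under 0.05), with SE from the F statistic, and in DESeq2 1.42.0 as an alternative. Counts were also simulated with a fixed dispersion that was not estimated from these data, so recovery in the data can differ. For LZ_T against LZ (12044 sequences), 68% of sequences changed 4-fold and 2% of those changed 2-fold were recovered. For LZ_T against SG_T (13254 sequences) these were 52% and 8%. Transcripts and coordinates are GENCODE M21 on GRCm38.

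The named sequences (M1 to M25) were the 5 most read members of each group and the 3 largest rises and falls of each test among called members whose groups did not overlap, with members sharing 20 first bases folded and those matching chromosome 18 passed over. Marker miRNAs were listed by cell type and used where the reference held them. Some of the named sequences are not reported here. Members and lists were chosen with earlier results of these data known. No column of another sample was used.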

Additional observations from a re-analysis of the deposited data

Results flagged for a closer look

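The ratio of U reads of 29-32 nt to those of 25-28 nt moved in opposite directions from spermatogonia to leptotene/zygotene spermatocytes in the 2 library sets. Leptotene/zygotene minus spermatogonia was 0.0982 in the single-library set and -0.0930 in the technical-replicate set, with every sample of each set on the same side. The difference between the sets was not tested, since SG had 1 sample.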

How the results depend on the processing

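With the member ranges and alternatives tried, the low member level in LZ_T against LZ kept its direction (log2 ratio -2.67 to -2.17 with 1 replicate left out, -1.33 scaled to 24-33 nt reads, -2.99 scaled to miRNA reads and -1.78 with those of 10 or more PD reads left out). LZ_T against SG_T ran from 0.04 to 0.63 with 1 replicate left out and turned to -0.34 scaled to miRNA reads. LZ against SG (1.03) was 0.52 scaled to 24-33 nt reads, 1.79 scaled to miRNA reads and 0.30 with those of 10 or more PD reads left out, and 0.79 to 1.24 without 1 LZ replicate. PD against LZ (2.42) was 2.07 for 28-33 nt, 1.42 scaled to 24-33 nt reads and 5.74 scaled to miRNA reads, and 2.21 to 2.65 without 1 LZ replicate. RS against PD (0.36) was 0.26 for 28-33 nt, 0.42 for 30-31 nt, 0.38 scaled to 24-33 nt reads, 0.21 scaled to miRNA reads, 0.38 for sequences of at least 2 reads and 0.35 without noncoding RNA. The A at position 10 difference between LZ_T and LZ (-1.15 percentage points) turned to 5.71 over distinct sequences, 0.52 without noncoding RNA and 0.13 without LZ replicate 2, and its range without 1 replicate was -2.43 to 0.13. The share of reads in PD, with the same first 20 bases, was 34.6% for SG, 71.2% for LZ, 88.4% for RS, 48.4% for SG_T and 49.7% for LZ_T, and with at least 2 reads 18.2% for SG, 70.0% for RS, 26.3% for SG_T and 23.8% for LZ_T.

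For LZ_T against LZ, 411 members were higher and 3445 lower at a mean of at least 1 RPM, 13 and 30 at 20 RPM, and 43 were higher in the 50-bp runs alone. Leaving out 1 replicate gave 54 to 75 higher and 335 to 341 lower. For LZ_T against SG_T, 34 were higher with DESeq2, 44 at 1 RPM (1 lower), 3 at 20 RPM and 0 in the 100-bp runs alone, where 44 members had an unadjusted p under 0.05 by edgeR. Leaving out 1 replicate gave 6 to 25, the 6 being without SG_T replicate 2. With 1 replicate left out, a lone sample was assumed to vary like the others. By gene, TMM factors gave 26 higher (9 in the main test), and leaving out 1 replicate gave 6 to 10 higher and 108 to 111 lower. The causes of these changes were not tested beyond what fewer sequences or samples imply.

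Replicate numbers are shared by the groups, but no label says that they pair samples, and same-numbered deviations correlated at 0.098 (LZ_T and LZ) and 0.42 (LZ_T and SG_T) across sequences. With the replicate block the member ratio was -2.41 against LZ and 0.32 against SG_T, 75 members were higher and 343 lower against LZ, 35 were higher and 0 lower against SG_T, and 7 genes were higher and 107 lower. A comparison by genome window was not run, because no genome was used here. SG_T replicate 2 was the shallowest sample.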

Other observations

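At some positions G-to-T differences were more frequent in the 100-bp runs than in the other libraries. Over members with at least 200 reads and a G at the position, G-to-T variants at position 9 came to 9.01% of the parent reads in the 100-bp runs, 0% in the 50-bp runs and 0.014% in the single-library samples. At position 14 they came to 6.43%, 0.023% and 0.017%. Position 3 went the other way, with 4.31% in the single-library samples, 3.10% in the 50-bp runs and 0.06% in the 100-bp runs.

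Retrotransposon reads of 28-33 nt, with any first base, took different courses by family in the authors' tables. Values of SG_T and LZ_T are unweighted means of the 50-bp and 100-bp runs. IAP, an endogenous retrovirus, was at 4350 RPM in SG, 3841 and 6763 RPM in the LZ samples, 5639 RPM in PD and 2368 RPM in RS, and at 359 and 151 RPM in SG_T and 1957 and 1453 RPM in LZ_T. Its antisense share was 33.7% in SG, 58.0% and 44.9% in the LZ samples, 89.7% in PD and 88.9% in RS, and 24.2% and 28.01% in LZ_T. L1, a LINE family, went from 5591 RPM in SG over 1986 and 5085 RPM in LZ to 1336 RPM in PD and 555 RPM in RS, and was at 216 and 187 RPM in LZ_T and 169 and 138 RPM in SG_T. No test was run on these single libraries.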
